A study of Mus musculus with 10 samples.

Results

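Solute carrier genes encode membrane proteins that move amino acids, sugars, ions, metals, nucleosides, lipids and vitamins across the plasma membrane and the membranes of organelles. They were taken here as every gene whose symbol begins with Slc and a digit, leaving out Slc2a1, Slc2a3, Slc16a3, Slc7a11 and Slc4a1, with a probe detected (detection p-value below 0.05) on at least 2 of 10 arrays. Of 351 such genes on the array 171 were detected, among 9744 detected genes in all, and each was read from the probe with the highest mean signal. They fall into 46 subfamilies, the largest being Slc25 (29 genes), Slc35 (17 genes) and Slc39 (10 genes). The symbol also takes in Slc4a1ap, Slc7a6os, Slc9a3r1 and Slc9a3r2, which are named after a carrier gene but encode adaptor, opposite-strand or scaffold products.

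The arrays measured total RNA of neutrophils purified from the blood of female mice of the nude NCR strain, which is athymic and lacks most T cells. Fresh cells came from control mice without tumors and no treatment (2 arrays) and from mice bearing tumors of the 4T1 line, a mouse mammary carcinoma line (2 arrays). Neutrophils of control mice were also cultured for 2 h in OptiMEM with 0.5% fetal bovine serum, either without G-CSF (no addition, mouse CCL2 or mouse CCL5, 1 array each) or with recombinant human G-CSF (alone, plus CCL2 or plus CCL5, 1 array each), the chemokines being at 20 ng/ml. G-CSF stimulates the bone marrow to make and release neutrophils, and CCL2 and CCL5 are chemokines that attract leukocytes. The labels give no mouse ages, no number of mice per array and no dose of G-CSF, and they leave unsaid whether the G-CSF went into the culture or into the donor mice. Nothing in them says that the replicates came from separate mice, so the p-values measure only the spread between these samples, which may be technical.

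The arrays detected 13227 to 14846 of 45281 probes and 112 to 130 of the 171 genes. All 10 arrays detected 85 of them, 33 were detected on exactly 2 arrays, and another 57 genes fell just outside the rule with detection on 1 array. Neutrophil markers gave summed signals of 76622 to 87132 on the fresh arrays and 59548 to 65193 on the cultured arrays. Markers of other blood cells were present too, and in tumor-bearing mice 23 of the 30 tested were lower and 0 higher. The summed B cell markers were at 2220 and 2661 in control mice and at 315 and 381 in tumor-bearing mice, those of T cells at 2037 and 2101 against 679 and 715, and those of dendritic cells at 4733 and 6545 against 1056 and 1237. NK cell markers Klrb1c and Ncr1 were not detected on at least 2 arrays. In such bulk samples fewer cells of a type and less RNA per cell cannot be told apart. Values below are normalized log2 signals, changes are differences on the log2 scale with the standard error of a limma fit, and a gene is called where its Benjamini-Hochberg adjusted p over all genes tested was below 0.05.

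Neutrophils rely on several of these carriers for well-known functions. Slc11a1 pumps metal ions out of the phagosome and limits the growth of microbes inside phagocytes, Slc40a1 (ferroportin) exports iron, and Slc6a6 imports taurine, which neutrophils hold in large amounts. Slc35c1 carries GDP-fucose into the Golgi for the fucosylated selectin ligands with which leukocytes roll.

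The genes with the highest mean signal of each transport role were detected on all 10 arrays, other than Slc20a1 (8 arrays) and Slc34a1 (2 arrays) of the phosphate and sulfate group. Slc40a1 lay between 11.79 and 13.96, and Slc11a1 between 12.86 and 13.92. Slc2a6, a glucose transporter family member, spanned 12.03 to 13.34, and Slc6a6 spanned 11.77 to 12.62. Many of these bright genes did not pass the test between fresh groups. Tumor-bearing minus control values were -0.27 ± 0.18 for Slc6a6, -0.07 ± 0.19 for Slc11a1, -0.15 ± 0.19 for Slc2a6 and -0.07 ± 0.19 for Slc44a2, a choline transporter-like protein known in human neutrophils as an alloantigen carrier.

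Between fresh neutrophils of tumor-bearing and control mice, 21 solute carrier genes were higher and 13 lower of 126 tested. The highest rises were of transporters for neutral amino acids (Slc6a19), vesicular GABA and glycine (Slc32a1) and purine nucleosides (Slc28a2), and the deepest fall was of the GABA and taurine transporter Slc6a13. Over all 7965 genes tested, 10.9% were called higher and 15.3% lower, 26.2% in either direction, so the share of solute carrier genes called in either direction (27%) was near the background. Their median change was 0.08, with -0.04 over all genes. The shares of all genes given here are also the background for the counts by role below. Of those called, 8 rose and 5 fell by 2-fold or more, where 289 and 447 of all 7965 genes did so. Of 30 genes of transport partners and regulators, 2 of 24 tested were higher and 0 lower, namely Bsg, the chaperone of monocarboxylate carriers (1.38 ± 0.20), and the asparagine synthetase gene Asns (1.34 ± 0.18).

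In the amino acid group, set by subfamily number here and below, 3 of 18 tested were higher and 3 lower. Slc7a6os, which is named after a carrier gene, was 1 of the 3 higher. Slc6a19, the sodium-dependent neutral amino acid transporter best known from kidney and intestine, stood at 4.78 and 4.65 on the control arrays and at 7.38 and 7.42 on the tumor-bearing arrays. It was not detected in control mice or on any cultured array, where values were 4.43 to 4.53. The signal was at least 6.05-fold higher in tumor-bearing mice, while its other detected probe changed by 0.83. Slc6a19 met the detection rule through the 2 tumor-bearing arrays alone, where it was high. Its test is therefore no separate support for the rise. Slc32a1, which loads GABA and glycine into synaptic vesicles in neurons, was at 5.50 and 5.15 in control mice and at 7.32 and 7.33 in tumor-bearing mice, a rise of 2.00 ± 0.19 (adjusted p = 1.49e-05). For both genes the tumor-bearing arrays lay together. Genes named for the largest changes between fresh groups were picked among called genes whose groups did not overlap. Separate groups of such genes are therefore no added support. Slc12a7, a potassium-chloride cotransporter gene that is the neighbour of Slc6a19 with no protein-coding gene between them, rose as well, from 5.17 and 4.58 to 6.04 and 5.90 (1.10 ± 0.22, adjusted p = 0.00294).

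Nucleoside carriers included a pair of neighbouring, closely related genes. Slc28a2, which concentrates purine nucleosides into cells with sodium, rose from 6.42 and 6.30 to 7.95 and 8.56 (1.90 ± 0.22, adjusted p = 5.78e-05). Slc28a2b, its mouse paralogue, rose from 8.04 and 7.63 to 9.30 and 9.89 (1.76 ± 0.23, adjusted p = 0.000155). On both probes the second tumor-bearing array was the higher, and separate groups were a condition for naming both genes. The probes of such near copies may read each other's transcripts, so these changes are not counted as independent. Among the nucleotide sugar carriers of Slc35, 0 of 17 tested were higher and 1 lower. That gene, Slc35b4, was at 5.13 and 5.68 in control mice and not detected in tumor-bearing mice, at least 1.45-fold lower. Slc35b4 entered the comparison through the control arrays alone, so its test is no separate support for the fall. Its call was lost without the first tumor-bearing array (-0.65, adjusted p = 0.117) and without background correction or in the authors' deposited table (-0.25, adjusted p = 0.102). With no filter on detection its adjusted p was 0.0891.

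The falls in tumor-bearing mice were led by a neighbouring pair of Slc6 genes that encode transporters of GABA and related osmolytes. Slc6a13, which carries GABA and taurine, was at 7.38 and 7.79 in control mice and 6.12 and 5.92 in tumor-bearing mice (-1.56 ± 0.20, adjusted p = 0.000142). Slc6a12, the betaine and GABA transporter by which kidney cells take up osmolytes, was at 5.85 and 5.82 in control mice and was not detected in tumor-bearing mice (4.44 and 4.82), at least 1.96-fold lower (adjusted p = 0.000819). Separate fresh groups were a condition for naming both genes. Slc6a12 entered this comparison through the control arrays alone, where it was high. Its test is therefore no separate support for the fall. The promoters of both are shown because these neighbours had the same call in all of the tumor-bearing, G-CSF and culture comparisons. Each line gives the 250 bases before the most 5′ annotated start, on the plus strand, from RefSeq for GRCm38.p6, at chr6:121300038-121300287 for Slc6a13 and chr6:121342324-121342573 for Slc6a12. Capitals mark ACGTG, the core of the hypoxia response element, searched on both strands.
Slc6a13: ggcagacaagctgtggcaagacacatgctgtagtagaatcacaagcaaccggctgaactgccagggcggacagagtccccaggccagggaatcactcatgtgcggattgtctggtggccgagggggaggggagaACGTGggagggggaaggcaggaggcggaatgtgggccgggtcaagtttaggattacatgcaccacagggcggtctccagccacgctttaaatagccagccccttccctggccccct
Slc6a12: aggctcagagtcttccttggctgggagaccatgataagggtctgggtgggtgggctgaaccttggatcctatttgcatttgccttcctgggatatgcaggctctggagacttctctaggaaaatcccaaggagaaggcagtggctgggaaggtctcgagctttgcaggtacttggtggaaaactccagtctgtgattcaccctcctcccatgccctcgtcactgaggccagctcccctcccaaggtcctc
Slc6a13 holds 1 match, 116 bases before the start, and these letters are not in the Slc6a12 window. Counted over all annotated starts of a gene, ACGTG occurs in 18.5% of the 27025 genes with a promoter entry, detected here or not. It occurs in 27.5% of the 138 detected solute carrier genes that have an entry. It occurs in 6 of 20 of those called higher (30%) and 2 of 11 of those called lower (18.2%) in tumor-bearing mice. The shares were 23.1% of those called higher and 35.7% of those called lower with G-CSF, and 34.3% and 44.4% in culture. A match is a description of the letters and shows no bound factor.

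The Slc28a2 and Slc28a2b windows, shown as the other neighbouring pair with shared calls in tumor-bearing mice and with G-CSF, hold no ACGTG on either strand. They lie on the plus strand at chr2:122426185-122426434 and chr2:122484691-122484940 of GRCm38.p6, also from RefSeq.
Slc28a2: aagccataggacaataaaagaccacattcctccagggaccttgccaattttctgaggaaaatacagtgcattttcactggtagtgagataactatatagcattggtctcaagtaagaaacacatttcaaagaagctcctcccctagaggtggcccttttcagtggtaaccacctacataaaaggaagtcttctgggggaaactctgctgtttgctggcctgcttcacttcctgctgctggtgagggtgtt
Slc28a2b: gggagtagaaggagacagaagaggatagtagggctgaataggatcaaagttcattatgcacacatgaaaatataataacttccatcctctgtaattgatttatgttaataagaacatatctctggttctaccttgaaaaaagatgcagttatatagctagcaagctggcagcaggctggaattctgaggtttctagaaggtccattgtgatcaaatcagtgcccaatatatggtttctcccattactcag

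Metal carriers moved in both directions in tumor-bearing mice, with 4 of 19 tested higher and 3 lower. Both copper transporters rose, the importer Slc31a1 from 5.97 and 6.16 to 6.92 and 7.07 (0.93 ± 0.19) and Slc31a2 from 5.05 and 5.26 to 6.11 and 5.94 (0.86 ± 0.19). The zinc importer Slc39a4 fell from 9.06 and 9.22 to 8.17 and 7.77 (-1.18 ± 0.20, adjusted p = 0.00107). Groups did not overlap for any of the 3 genes, which was a condition for naming Slc31a1 and Slc39a4. The Golgi zinc carrier Slc30a7 rose by 0.69 ± 0.18. Slc39a11, a zinc transporter, fell (-0.64 ± 0.21), and its call was lost without the first control array (-0.47), without either tumor-bearing array (-0.47 and -0.81) and without background correction (-0.22).

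Mitochondrial carriers of Slc25 counted 4 higher and 1 lower of 22 tested. Slc25a30 rose from 6.09 and 6.79 to 7.56 and 7.74 (1.21 ± 0.23), and Slc25a17, a cofactor carrier of the peroxisome despite its family, rose by 0.83 ± 0.18. Slc25a39, which brings glutathione into mitochondria and is needed for heme synthesis, fell from 9.08 and 8.58 to 7.39 and 7.78 (-1.24 ± 0.22, adjusted p = 0.00143). The heme transporter Slc48a1 was also lower (-0.71 ± 0.20), a call lost without the second tumor-bearing array (-0.48, adjusted p = 0.208) and under median scaling (-0.56, adjusted p = 0.058). The red cell gene Alas2 fell with them (-1.68 ± 0.25), and summed red cell markers were at 17123 and 17597 in control mice and 15596 and 11827 in tumor-bearing mice. Whether red cell RNA has a part in these changes was not tested.

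Other named changes came from several role groups and included genes that are only named after a carrier. Slc37a3, of the sugar-phosphate exchanger family, rose from 5.17 and 5.42 to 6.72 and 6.54 (1.33 ± 0.19), and the phosphate importer Slc20a1 rose from 5.59 and 5.28 to 6.16 and 6.48 (0.88 ± 0.20). The sugar transporter Slc50a1 fell from 7.69 and 7.47 to 6.59 and 6.58 (-0.995 ± 0.19), and the lysosomal carrier Slc46a3 from 5.85 and 6.10 to 4.94 and 5.06 (-0.98 ± 0.19). The scaffold gene Slc9a3r2 was not detected in tumor-bearing mice and was at least 2.46-fold lower. Slc9a3r2 entered the comparison through the control arrays alone, so its test is no separate support for the fall. Separate groups were a condition for naming these genes. Slc38a9, the lysosomal arginine sensor of the mTORC1 pathway, fell by 0.91 on the log2 scale, and Slc7a6os rose by 1.01 ± 0.23, with 0.30 on its other probe. Without the second tumor-bearing array the calls of Slc20a1 (0.72), Slc38a9 (-0.65) and Slc7a6os (0.81) were lost.

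**Figure D1:**
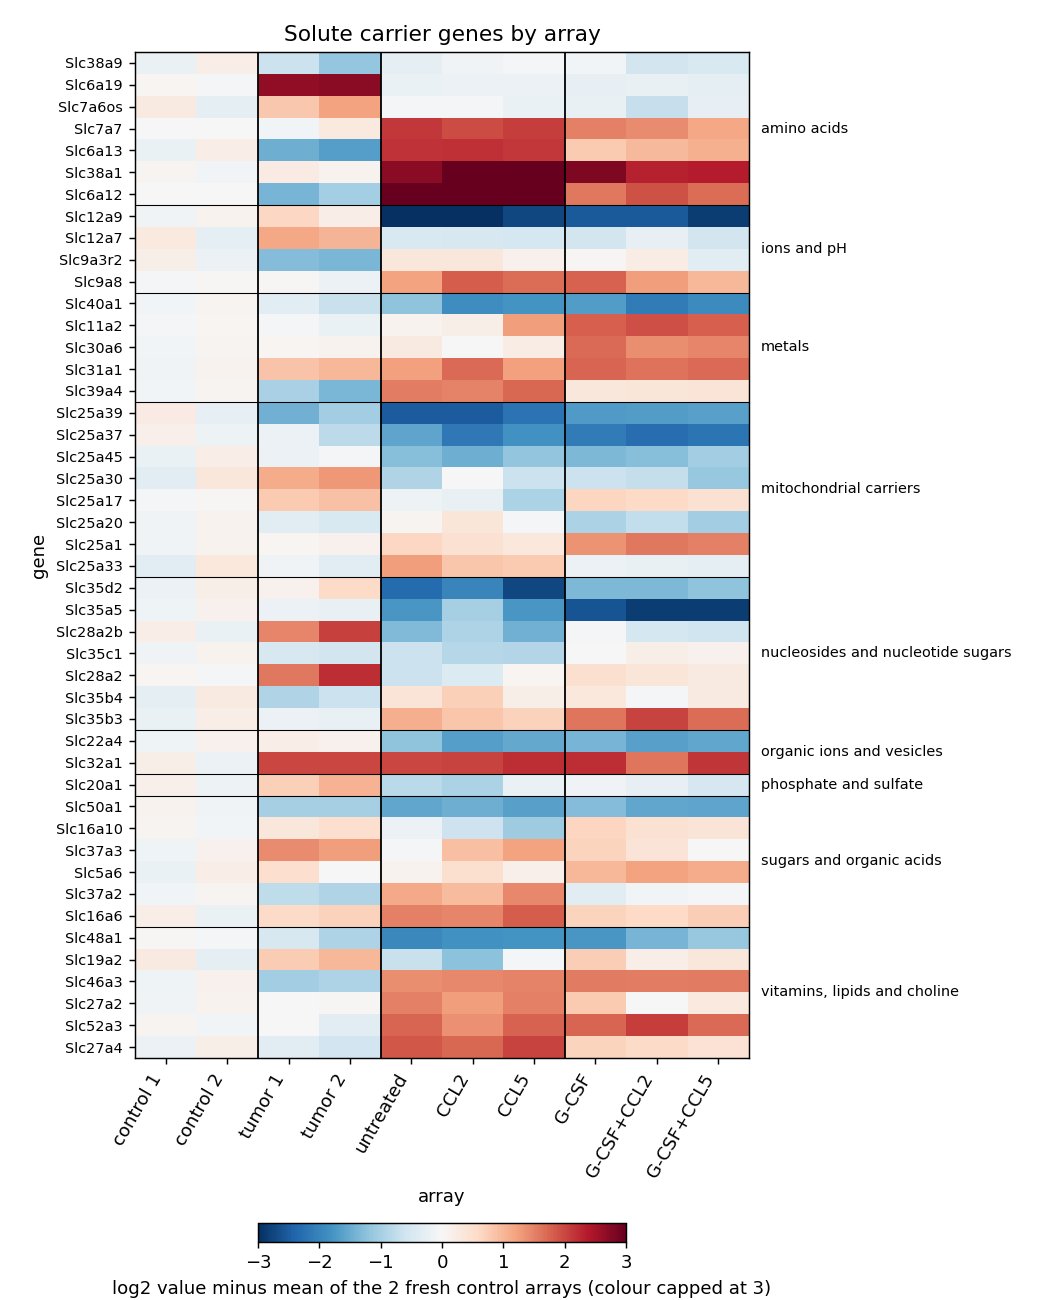
Each row is a solute carrier gene among the largest rises or falls of a comparison, ordered by transport role, and each column an array (fresh control, fresh tumor-bearing, cultured). Colour gives the log2 value minus the mean of the 2 fresh control arrays, capped at 3. Slc6a19 is raised on the tumor-bearing arrays, while Slc6a12, Slc6a13 and Slc38a1 are raised on all 6 cultured arrays.

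In culture, G-CSF arrays were compared with arrays without it across the matched pairs no addition, CCL2 and CCL5. Of 143 solute carrier genes tested 29 were higher and 17 lower, where 16.6% of all 8560 genes were called higher and 12.2% lower, 28.9% in either direction, against 32.2% of the solute carrier genes. With each array scaled by its median instead, 64 were higher and 11 lower, while the median change of all genes moved from 0.06 to 0.42. The arrays with G-CSF were the brighter ones, with median raw signals of 111 to 124 against 99.2 to 108. Without the untreated array, or without the array of G-CSF alone, 10 were higher and 11 lower. Genes named for the largest changes with G-CSF were picked among called genes whose matched pairs all changed the same way. Separate arrays of such genes are therefore no added support. The shares of all genes given here are the background for the counts by role below.

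The largest falls with G-CSF included carriers of GABA, fatty acids and zinc. Slc6a12 was at 9.18, 9.52 and 9.39 without G-CSF and at 7.41, 7.74 and 7.52 with it (-1.81 ± 0.15, adjusted p = 0.000209). Slc6a13 was at 9.74, 9.77 and 9.69 without and 8.36, 8.57 and 8.65 with G-CSF (-1.21 ± 0.16, adjusted p = 0.00132). Slc39a4 was at 10.67, 10.62 and 10.86 without and 9.48, 9.50 and 9.52 with G-CSF (-1.22 ± 0.16). For each of these genes every array with G-CSF lay more than 1 below every array without it. The fatty acid transport proteins Slc27a4 and Slc27a2 changed by -1.31 ± 0.17 and -1.07 ± 0.17, and the carnitine carrier Slc25a20, which brings fatty acyl groups into mitochondria, by -1.04 ± 0.15. Slc25a33, a pyrimidine nucleotide carrier of mitochondria, changed by -1.18 ± 0.16, and Slc35a5 by -1.26 ± 0.21. Slc37a2, a sugar-phosphate exchanger of the endoplasmic reticulum, changed by -1.33 ± 0.17 on its own probe and by 0.00 on its other one.

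Golgi and metal carriers were among the rises. The Golgi zinc carrier Slc30a6 was at 6.84, 6.58 and 6.80 without and 8.28, 7.97 and 8.05 with G-CSF (1.36 ± 0.16, adjusted p = 0.000688). Of the nucleoside and nucleotide sugar carriers 7 of 18 tested were higher and 3 lower. Slc35c1, the GDP-fucose carrier, was at 9.04, 8.84 and 8.82 without and 9.72, 9.87 and 9.83 with G-CSF (0.90 ± 0.16). Slc35b3 and Slc35b2, which carry the sulfate donor PAPS into the Golgi, rose by 0.90 ± 0.18 and 0.69 ± 0.16, and Slc35d2, a nucleotide sugar carrier, by 1.04 ± 0.20. The groups did not overlap for any of these 5 genes. Agreement of the matched pairs was a condition for naming Slc30a6, Slc35c1, Slc35b3 and Slc35d2, so their separation is no added support. The call of Slc35b2 was lost without the array of CCL5 alone or that of G-CSF with CCL5 (0.64 in both cases).

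Other rises with G-CSF concerned intermediates and vitamins. The mitochondrial citrate carrier Slc25a1, which supplies citrate for lipid synthesis, was at 6.44, 6.29 and 6.15 without and 7.17, 7.40 and 7.35 with G-CSF (1.01 ± 0.17). The biotin and pantothenate transporter Slc5a6 rose by 0.86 ± 0.16, and Slc16a10, which carries aromatic amino acids, by 1.12 ± 0.18. Slc11a2, the divalent metal importer of iron uptake, was at 4.61, 4.67 and 5.76 without and 6.28, 6.42 and 6.28 with G-CSF (1.32 ± 0.25). It was detected on all 3 arrays with G-CSF and, without it, on the CCL5 array alone, so its change rests in part on values at background. The thiamine transporter Slc19a2 rose by 1.08 ± 0.23. The calls of Slc11a2 (1.14) and Slc19a2 (0.91) were lost without the untreated array or without the array of G-CSF alone. Amino acid carriers counted 3 higher and 4 lower of 24, among the latter the cationic amino acid carrier Slc7a7 (-0.69 ± 0.16, but -0.12 under median scaling, with adjusted p = 0.598). Its call was also lost without the untreated array or that of G-CSF alone (-0.73), and without the array of CCL5 or of G-CSF with CCL5 (-0.57).

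Of the partners and regulators 3 were higher and 8 lower with G-CSF of 24 tested. Asns (1.58 ± 0.16) and Bsg (1.09 ± 0.17) rose here too. The glucose transporter regulator Arrdc4 (-1.33 ± 0.17), the chloride cotransporter kinase Wnk1 (-0.92 ± 0.17) and the amino acid sensor Sesn2 (-0.98 ± 0.16) fell. Markers of other blood cells were lower for 20 of 29 tested and higher for 0, and summed red cell markers were at 13902 to 15249 without G-CSF and 3371 to 4042 with it. Their part in the changes of carriers was not tested.

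The chemokines gave no calls among the same 143 genes. For CCL2 0 solute carrier genes and 0% of all genes were called in limma, with 12 solute carrier genes (8.39%) and 439 of all 8560 genes (5.13%) at an unadjusted p below 0.05, the former 4 higher and 8 lower. For CCL5 0 solute carrier genes and 0% of all genes were called, with 8 (5.59%) and 347 of all genes (4.05%) at that level, the former 2 higher and 6 lower. Slc39a14, a zinc and iron importer, was at 5.16 and 5.50 without chemokine and was not detected on either array with CCL2 or either array with CCL5. It met the detection rule through the 2 arrays without chemokine alone, so its absence elsewhere is no separate support for a fall. The bounds, at least 1.38-fold lower with CCL2 (adjusted p = 0.948) and at least 1.41-fold lower with CCL5 (adjusted p = 0.993), did not pass the test, and both comparisons share the arrays without chemokine. Slc40a1 changed by -0.53 ± 0.20 with CCL2, from 12.68 and 12.21 to 12.03 and 11.79, with adjusted p = 0.948.

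Untreated culture against fresh control cells gave the largest share of calls, but its fit used more arrays than those of the tumor-bearing and G-CSF comparisons. Shares from fits of unlike size do not rank the effects. Time in culture, medium and serum changed together between these arrays, and donor mice or array runs may differ too. The part of each in the calls was not tested. In untreated culture against fresh control cells 46 solute carrier genes were higher and 25 lower of 171 tested, 41.5%, where 16.4% of all 9744 genes were called higher and 17.9% lower, 34.3% in either direction. By 2-fold or more 26 rose and 15 fell, against 850 and 911 of all 9744 genes. The untreated culture is a single array, so the fitted change draws on all 6 cultured arrays through additive terms and can differ a little from the printed values. This comparison shares the control arrays with the tumor-bearing comparison and the cultured arrays with the G-CSF comparison. Genes named for the largest changes in culture were picked among called genes whose untreated array lay apart from the control arrays. Such separation is therefore no added support.

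Amino acid carriers were called higher in 11 cases and lower in 2 of 29 in culture. Over all genes 16.4% were called higher and 17.9% lower. Slc6a12 was at 5.85 and 5.82 fresh and at 9.18 in untreated culture, with 7.41 to 9.52 over all 6 cultured arrays (3.36 ± 0.20, adjusted p = 7.91e-08). Slc6a13 went from 7.38 and 7.79 to 9.74 (2.07 ± 0.22). Slc38a1, a sodium-coupled glutamine and alanine transporter, was not detected on any fresh array (4.30 to 4.63) and was at 6.71 to 7.72 on all 6 cultured arrays. It was at least 4.95-fold higher in culture, while its other detected probes changed by 0.09 to 1.53. Slc38a1 met the detection rule through the cultured arrays alone, so its test is no separate support for the rise. Slc38a2, its neighbour gene and relative, was at 11.51 and 11.75 fresh and 11.81 in untreated culture and did not pass the test (0.25 ± 0.21).

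The light chain Slc7a7 rose from 6.24 and 6.26 to 8.37 (2.16 ± 0.21), with 1.86 on its other probe. Slc3a2, the heavy chain that brings Slc7 light chains to the cell surface, was not detected fresh (4.36 and 4.63) and stood at 5.78 in untreated culture, at least 1.98-fold higher. The leucine and phenylalanine carrier Slc43a2 rose by 1.54 ± 0.25. Arrays of fresh and cultured cells did not overlap for any of these 3 genes. An untreated array apart from the control arrays was a condition for naming Slc7a7. Among genes of amino acid sensing, Rragd (1.24 ± 0.23), Rragc (1.13 ± 0.19), Castor1 (1.01 ± 0.26) and Sesn2 (0.84 ± 0.20) were higher. The stress factor Atf4 was lower (-1.31 ± 0.19). Over all partners and regulators 8 were higher and 6 lower of 25.

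**Figure D2:**
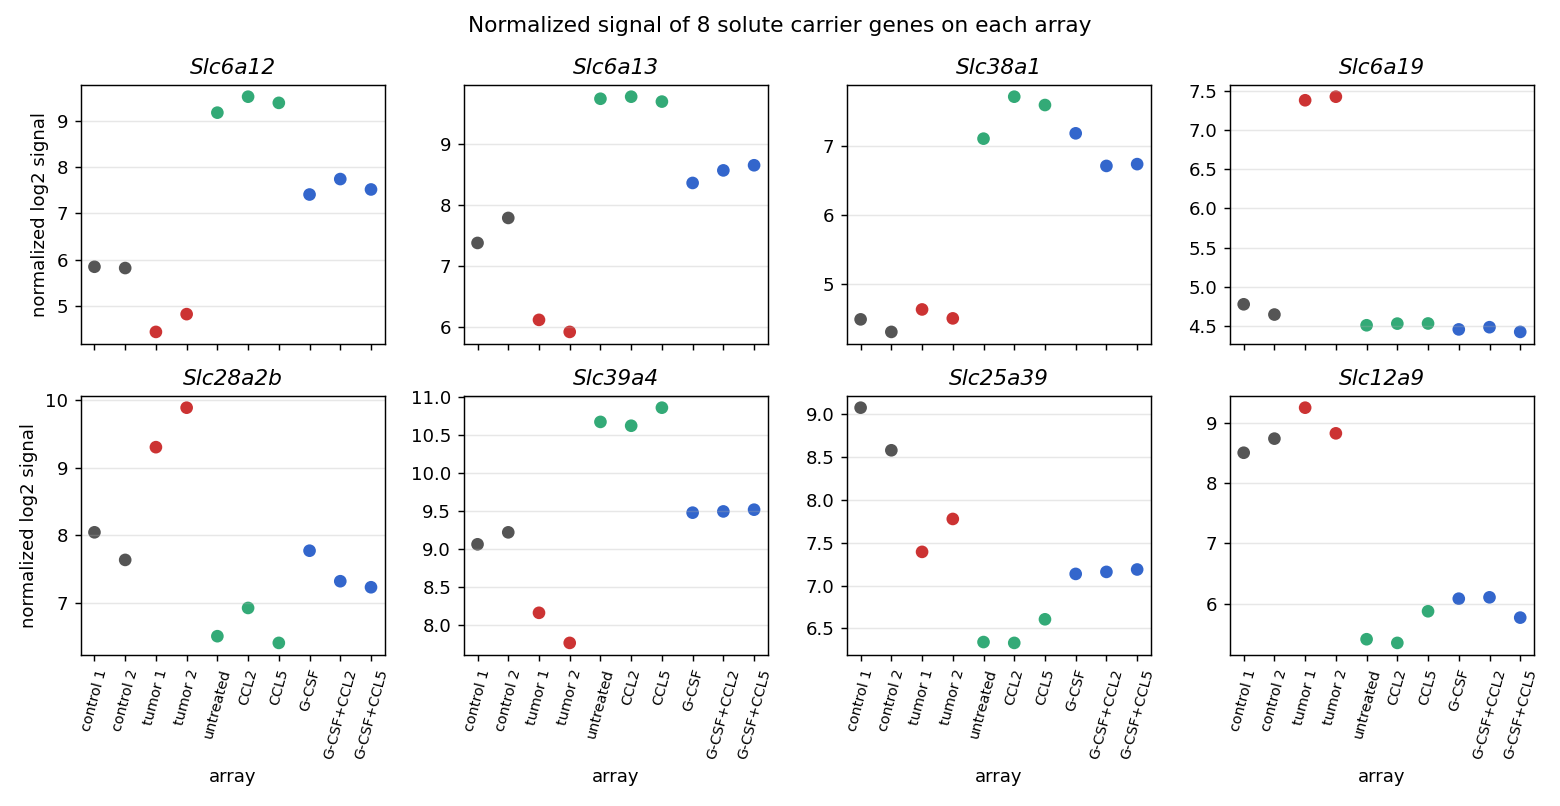
Each panel shows the normalized log2 signal of 1 gene on the 10 arrays, grey for fresh control, red for fresh tumor-bearing, green for culture without G-CSF and blue for culture with G-CSF. Axes differ between panels and do not start at 0. Slc6a12, Slc6a13 and Slc39a4 are lowest on the red arrays, highest on the green arrays and between them on the blue arrays, while Slc6a19 is raised on the red arrays alone.

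Metal carriers were higher in 10 cases and lower in 3 of 23 in culture, with 6 of the 10 zinc importer family genes of Slc39 higher and 0 lower. Over all genes 16.4% were called higher and 17.9% lower, and whether this family departs from that was not tested. Slc39a4 went from 9.06 and 9.22 to 10.67 (1.54 ± 0.21), and the copper importer Slc31a1 from 5.97 and 6.16 to 7.31 (1.34 ± 0.22). The iron exporter Slc40a1 fell from 13.82 and 13.96 to 12.68 (-1.31 ± 0.21), and all 6 cultured arrays (11.79 to 12.68) lay below all 4 fresh arrays. Slc11a1 was called higher (0.57 ± 0.21, adjusted p = 0.046), with 0.15 to 1.64 on its other probes, a call lost without either control array (0.67 and 0.47) and in a fit of the fresh control and cultured arrays alone (0.57, adjusted p = 0.0613). Slc30a9, a zinc carrier, fell by 0.98 on the log2 scale on its chosen probe and rose by 1.01 on its other one, and without the first control array its call was lost (-0.73).

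Vitamin, lipid and choline carriers were higher in 7 cases and lower in 2 of 14, against 16.4% and 17.9% of all genes. The fatty acid transport gene Slc27a4 rose from 6.86 and 7.22 to 8.90 (1.92 ± 0.22), and Slc27a2, not detected fresh, was at least 2.31-fold higher. The riboflavin transporter Slc52a3 rose from 4.98 and 4.81 to 6.65 (1.65 ± 0.24), and the choline transporter Slc44a1 from 10.20 and 10.16 to 11.37 (1.15 ± 0.19). The vesicular transporter Slc32a1, raised in tumor-bearing mice, was at 7.34 in untreated culture as well (2.16 ± 0.22). Slc16a6, of the monocarboxylate family, rose by 1.55 ± 0.21, with -0.21 and 1.43 at the ends of its other probes. The endosomal sodium-proton exchanger Slc9a8, not detected fresh, was at least 2.07-fold higher.

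The deepest fall in culture was of Slc12a9, a cation-chloride cotransporter family member, at 8.50 and 8.73 fresh and 5.42 in untreated culture (-3.09 ± 0.26, adjusted p = 1.13e-06). Its other probes changed by -2.49 to -0.50. The nucleotide sugar carrier Slc35d2 fell from 8.64 and 8.97 to 6.49 (-2.35 ± 0.26), and the sugar transporter Slc50a1 from 7.69 and 7.47 to 6.02 (-1.46 ± 0.20). All cultured arrays lay below all fresh arrays for Slc12a9, Slc35d2 and Slc50a1. Slc22a4, the ergothioneine transporter, was not detected in untreated culture and was at least 2.06-fold lower. Probes of 1 gene also disagreed by more than 1 for Slc15a4, a lysosomal peptide and histidine carrier (1.00 ± 0.28, other probe -0.06), for the mitochondrial pyrimidine nucleotide carrier Slc25a36 (1.06 ± 0.24, other probes from 0.05 to 0.87) and for Slc41a3, of a magnesium carrier family (-0.69 ± 0.20, other probe 0.68). The calls of Slc15a4 (0.56) and Slc41a3 (-0.63) were lost without the first control array.

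The falls in culture also took in Slc25a39 and other genes known for heme and iron handling. Slc25a39 went from 9.08 and 8.58 to 6.34 (-2.46 ± 0.23), the heme transporter Slc48a1 from 8.32 and 8.24 to 6.35 (-2.05 ± 0.22) and Slc25a37, the mitochondrial iron importer mitoferrin, from 10.57 and 10.28 to 8.86 (-1.66 ± 0.24). Alas2, the first enzyme of heme synthesis in red cells, fell with them (-4.24 ± 0.26), while the globin gene Hba-a1 did not pass the test (0.20 ± 0.22). Of the 3 red cell markers tested 2 were lower and 0 higher, with a median change of -2.49. Summed red cell markers were at 17123 and 17597 in fresh control mice and at 15249 in untreated culture. Of all markers of other blood cells tested here 5 were higher and 12 lower of 32, with summed T cell markers at 4395 in untreated culture against 2037 and 2101 fresh. Of 9 neutrophil markers tested in culture 2 were higher and 5 lower, with a median change of -0.65. The part of these marker changes in the changes of carriers was not tested.

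**Figure D3:**
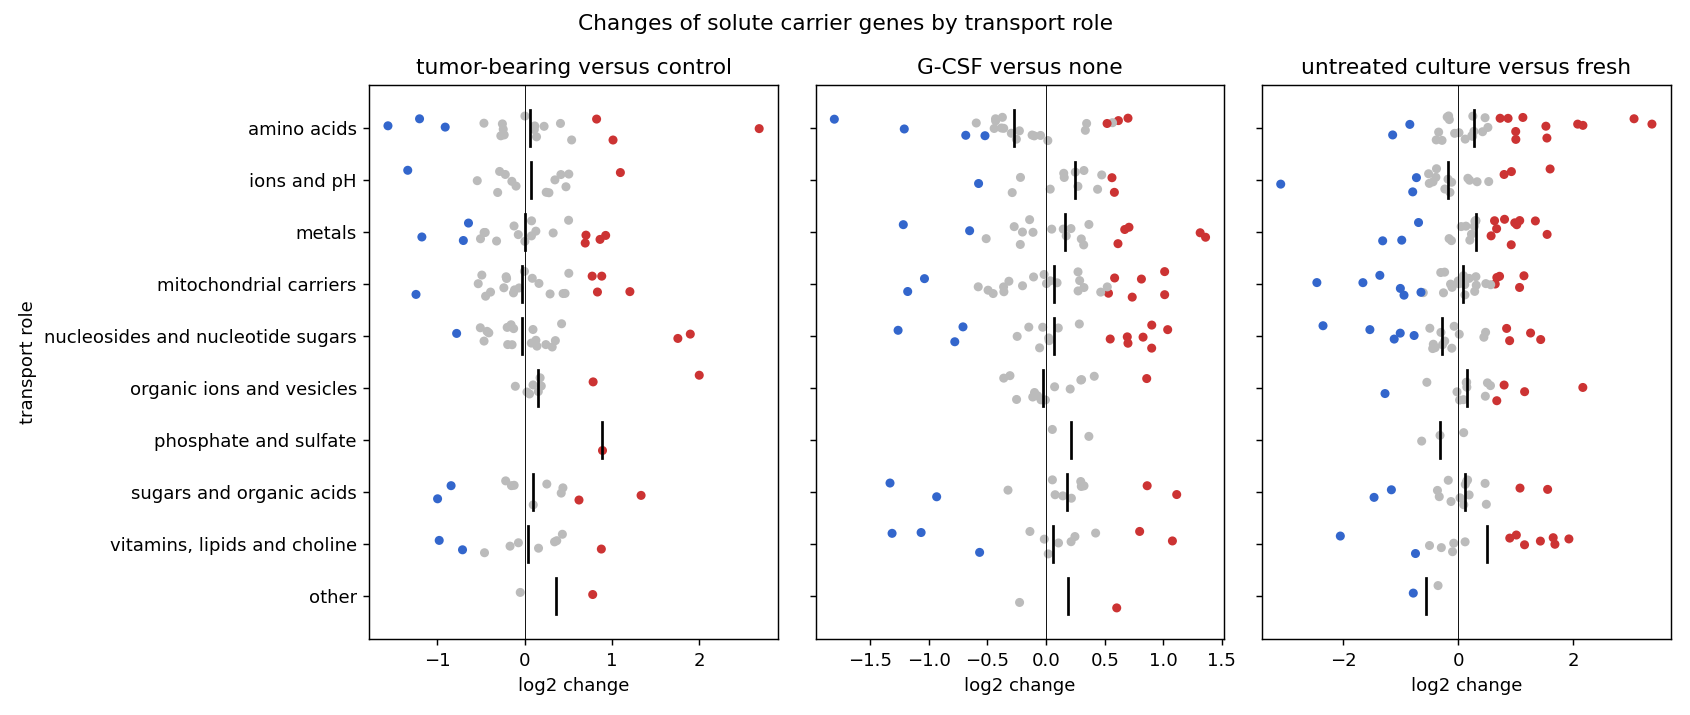
Each point is a solute carrier gene, placed by its log2 change (horizontal axis) and its transport role (vertical axis) in the tumor-bearing, G-CSF and culture comparisons. Red points were called higher, blue points lower and grey points not called, and the black bars mark the median of the role. In culture the amino acid group holds 11 red and 2 blue points, where 16.4% of all genes were called higher and 17.9% lower.

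The tumor-bearing and G-CSF comparisons share no array, so their calls can be set side by side. Of 108 solute carrier genes tested in both, 32 were called in tumor-bearing mice and 40 with G-CSF, and 15 were called in both, which is 46.9% of the former and 37.5% of the latter. Over all 7249 genes tested in both, 793 were called in both, 41% of the tumor-bearing and 34.8% of the G-CSF calls. Thus the shares of solute carrier genes were near those of all genes. Of the calls in both, 4 of 15 ran in opposite directions (26.7%), against 215 of 793 over all genes (27.1%).

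In the same direction, 7 genes were higher in both (Slc19a2, Slc25a17, Slc28a2, Slc28a2b, Slc30a7, Slc31a2 and Slc66a1) and 4 lower in both (Slc6a12, Slc6a13, Slc37a2 and Slc39a4). Slc6a12 entered the tumor-bearing comparison through the control arrays alone, so its call there is no separate support. The probes of Slc28a2 and Slc28a2b may read each other's transcripts, so these genes are not counted as independent. Slc25a17 rose by 0.83 ± 0.18 in tumor-bearing mice and by 1.01 ± 0.18 with G-CSF. Slc39a4 changed by -1.18 ± 0.20 and -1.22 ± 0.16, and the difference of its effects was 0.04 ± 0.25. Slc28a2 rose by 1.90 ± 0.22 and 0.70 ± 0.20, and its effects differed (1.20 ± 0.32, adjusted p = 0.0177). The lysosomal cationic amino acid exporter Slc66a1 rose by 0.78 ± 0.19 and 0.60 ± 0.18. The other detected probe of Slc37a2 changed by 0.06 and 0.00. Several of these shared calls were lost when an array was left out. In the additive fit, leaving out 1 cultured array also takes its matched partner out of the G-CSF effect. The G-CSF losses therefore do not show that a call rested on 1 array. Without the untreated array or that of G-CSF alone, the G-CSF calls of Slc19a2 (0.91), Slc28a2 (0.49), Slc28a2b (0.61) and Slc66a1 (0.45) were lost, as were those of Slc28a2 without the array of CCL2 or of G-CSF with CCL2 (0.66) and of Slc66a1 without the array of CCL5 or of G-CSF with CCL5 (0.56). The G-CSF call of Slc66a1 was also lost without background correction or in the authors' deposited table (0.22, adjusted p = 0.0956) and with no filter on detection (0.60, adjusted p = 0.0687). The tumor-bearing calls of Slc19a2 (0.76) and Slc37a2 (-0.77) were lost without the second tumor-bearing array, that of Slc19a2 also without the second control array (0.61), and that of Slc66a1 without the first tumor-bearing array (0.74). The difference of effects of Slc28a2 was no longer called without either control array (1.26 and 1.14), without the second tumor-bearing array (0.89) or under median scaling (0.80).

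In opposite directions, 2 genes were higher in tumor-bearing mice and lower with G-CSF (Slc16a6 and Slc36a3) and 2 the reverse (Slc25a39 and Slc39a11), and for all 4 the effects differed. Slc25a39 changed by -1.24 ± 0.22 in tumor-bearing mice and by 0.74 ± 0.16 with G-CSF, from 6.34, 6.33 and 6.61 to 7.14, 7.16 and 7.19 (difference -1.98 ± 0.28, adjusted p = 0.000463). Slc16a6 changed by 0.62 ± 0.20 and -0.93 ± 0.16 (difference 1.56 ± 0.25, adjusted p = 0.00123). The proton-coupled amino acid family gene Slc36a3 changed by 0.83 ± 0.19 and -0.52 ± 0.17, the latter turning to 0.05 under median scaling. Single calls of these genes were lost when an array was left out, that of Slc25a39 with G-CSF without the untreated array or that of G-CSF alone (0.71), and those of Slc16a6 in tumor-bearing mice without the second control array (0.42) or either tumor-bearing array (0.68 and 0.56). Those of Slc36a3 were lost in tumor-bearing mice without the first tumor-bearing array (0.74) and with G-CSF without any single array (-0.60 to -0.38). For Slc39a11 they were lost with G-CSF without the untreated array or that of G-CSF alone (0.65) and without that of CCL5 or of G-CSF with CCL5 (0.68), and in tumor-bearing mice as given above (-0.47 to -0.81).

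Tested directly over all 171 genes, the tumor-bearing effect exceeded the G-CSF effect in 15 and fell short of it in 12, 15.8% of the genes, where 7.88% and 13.3% of all genes were called, 21.2% in either direction. Only 108 of these genes were tested in both comparisons, and among them 12 and 11 were called (21.3%), against 686 and 1189 of 7249 over all genes (25.9%). The others lacked a tested effect in at least one of the comparisons. Under median scaling the counts over all 171 genes were 11 and 34. Slc6a19 was not detected on any cultured array, so no difference of its effects is given. Among the genes tested in both, Slc32a1 had the highest difference (2.10 ± 0.26) and Slc25a39 the lowest. Slc32a1 rose by 2.00 ± 0.19 in tumor-bearing mice, while with G-CSF it changed by -0.10 ± 0.18, from 7.34, 7.35 and 7.55 to 7.54, 6.94 and 7.46, with overlapping arrays and a value of 0.47 under median scaling. The GDP-fucose carrier Slc35c1 changed by -0.51 ± 0.19 in tumor-bearing mice (adjusted p = 0.0639) and by 0.90 ± 0.16 with G-CSF, and its effects differed (-1.41 ± 0.24, adjusted p = 0.00171).

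**Figure D4:**
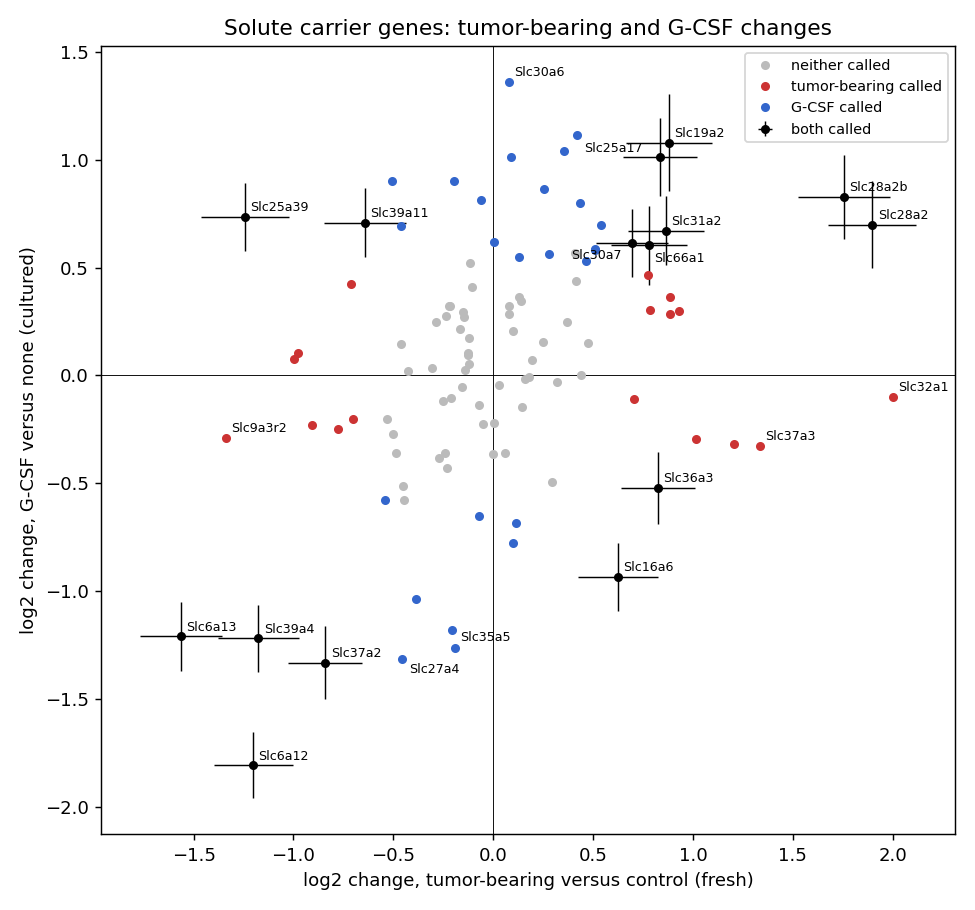
Each point is a solute carrier gene tested in both comparisons, with its log2 change in tumor-bearing mice on the horizontal axis and its log2 change with G-CSF in culture on the vertical axis. Black points with standard errors are the 15 genes called in both, red and blue points were called in tumor-bearing mice or with G-CSF alone. Slc6a12, Slc6a13, Slc37a2 and Slc39a4 lie at the lower left, and Slc32a1 lies far to the right near 0 on the vertical axis.

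Across the tumor-bearing, G-CSF and culture comparisons 100 of the 171 genes were called at least once (58.5%) and 10 in all of them (5.85%), where 54.9% and 4.37% of all 9744 genes were. The Slc22 organic ion family gave 0 calls of 5 tested in tumor-bearing mice, 0 of 6 with G-CSF and 2 of 7 in culture. Over all genes 26.2%, 28.9% and 34.3% were called, and so few Slc22 genes cannot show a lower rate. Slc44a2 lay between 11.98 and 12.56 on all arrays and was called in none of these comparisons. Of 6 pairs of neighbouring solute carrier genes with no protein-coding gene between them in GRCm38.p6, Slc6a13 with Slc6a12 and Slc28a2 with Slc28a2b shared calls in more than 1 comparison. The probes of Slc28a2 and Slc28a2b may read each other's transcripts, so their shared calls are not counted as independent. For Slc38a1 and Slc38a2 the culture calls differed, as did those of Slc7a6 (0.73 ± 0.22) and Slc7a6os (0.01 on its chosen probe).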

How the data were processed

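Total RNA of purified neutrophils was measured on 10 Illumina bead arrays. Per the file headers, the deposited table gives each probe's average signal intensity, bead number and bead standard error (other), and a detection p-value. The authors' processed table holds log2 values, which were checked against quantile-normalized log2 raw signals (largest difference 0.00531). Partek is named in the submitters' processing notes, and no version or role for it is given in the sources used here.

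Intensities were background-corrected (nec of limma 3.58.1 in R 4.3.3, offset 16, using detection p-values in place of control probes), log2-transformed and quantile-normalized over 10 arrays. The first step enlarges changes of dim probes, and the last removes differences in array brightness. Of 45281 probes 34885 name 1 gene in the platform annotation, 18 several and 10378 none. Probes with detection p below 0.05 on at least 2 arrays of a fit were tested, 1 per gene, in two-sided limma tests with Benjamini-Hochberg adjustment over all genes.

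The tumor-bearing comparison used the 4 fresh arrays. Effects of the added factors came from an additive fit of 6 cultured arrays with 1 array a condition. Culture and the difference of effects came from all 10 arrays. The number of arrays limits the precision. The replicate numbers were not taken as pairs (deviations of same-numbered fresh arrays correlated at 0.0617). For a gene undetected throughout a group, folds are bounds ("at least"), the undetected arrays being raised to their lowest detected value where they lay below it.

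Members, gene lists, tests and roles, the latter by subfamily number, were chosen with earlier results of these data known. Named genes are the 10 largest rises and falls per comparison among called genes with separate groups or with matched pairs that agree, the 2 with the highest mean signal of each role, and called genes whose probes differ by more than 1. Further genes were picked for naming with their values known. The fits were tested on simulated data. Alternatives were other background correction, scaling, filters, probes and arrays left out.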

Additional observations from a re-analysis of the deposited data

How the results depend on the processing

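With the replicate number of the fresh arrays as a block, 21 solute carrier genes were higher and 14 lower in tumor-bearing mice. Counts of genes called stayed within 1.5 times of those given under every alternative run except the following. In tumor-bearing mice, leaving out 1 fresh array gave 13 to 23 higher and 9 to 13 lower, with 13 higher without the second tumor-bearing array. Leaving out 1 cultured array gave 10 to 20 higher and 11 to 14 lower with G-CSF, and median scaling gave 64 higher and 11 lower. For the tumor-bearing minus the G-CSF effect, leaving out 1 fresh array gave 6 to 10 higher and 9 to 11 lower, and median scaling 34 lower. Under median scaling the G-CSF changes of Slc25a36 (0.46), Slc32a1 (0.47) and Slc36a3 (0.049) turned positive. With the probe chosen by the highest normalized mean, the culture changes of Slc30a9 (1.01) and Slc7a6os (-0.66) turned. With no filter on detection more genes were tested, and some adjusted p rose above 0.05. In limma this held for the tumor-bearing calls of Slc16a6, Slc19a2, Slc35b4, Slc38a9, Slc39a11, Slc48a1 and Slc7a6os (0.0523 to 0.0986). It also held for the G-CSF calls of Slc28a2, Slc36a3 and Slc66a1 (0.0652 to 0.0725) and the differences of Slc25a33 and Slc37a3 (0.0557 and 0.0596). Beyond the other arrays or probes themselves, the cause was not tested. Over 124 calls of named genes, changes without background correction were 0.321 to 0.992 of those given (median 0.61), as the signals of dim probes lie close to background. Slc6a19, Slc6a12, Slc9a3r2 and Slc35b4 were not tested without an array of the only fresh group that detected them. These genes entered the tumor-bearing comparison through that group alone. A single array per cultured condition leaves chemokine effects with 2 residual degrees of freedom. A fit with the slide as a block was not run, because the headers name no slide.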
